A study of Mus musculus with 34 samples.

Results

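The 41 genes described here encode the heat shock and unfolded protein response machinery, and they were taken by gene symbol from the 20613 genes with values. They occupied 42 rows of the table, because Ddit3 had 2 gene identifiers. By cell compartment and role, 14 were cytosolic heat shock genes, 3 were mitochondrial chaperones, 15 were chaperones and folding enzymes of the endoplasmic reticulum (ER), and 9 were ER stress sensors and regulators. The study measured polyadenylated RNA in 34 libraries of cortical astrocytes, which were isolated with magnetic beads from male wild-type mice. There were 4 libraries from postnatal day 7 (P7), 4 from P14, 3 each from P21, P28 and P60, 5 from the age of 3 months (3m), 5 from 6m, 3 from 12m and 4 from 18m. No group carried a transgene or received a treatment according to the labels, and neither the strain nor the antigen used for isolation is given there. Nothing in the labels ties a library to an animal of its own, and p-values therefore measure only the spread between these libraries, which may be technical.

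When unfolded proteins build up in the cytosol, heat shock factor 1 (Hsf1) is released from chaperones and drives transcription of the inducible Hsp70, small heat shock proteins and co-chaperones. In the ER lumen, the Hsp70 family member BiP (Hspa5) holds back the sensors IRE1 (Ern1), PERK (Eif2ak3) and ATF6 until unfolded proteins engage it. IRE1 splices Xbp1 mRNA, PERK raises translation of ATF4, and ATF6 is cleaved to an active factor, and together they induce ER chaperones, degradation factors and CHOP (Ddit3). Astrocytes express the small heat shock protein αB-crystallin (Cryab), which accumulates with GFAP in the Rosenthal fibres of Alexander disease. The values are RNA levels per gene in TPM, a unit scaled for transcript length and for the library's total, so that splicing of Xbp1 and sensor activity were not measured. The number of reads behind each value is unknown.

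The libraries carried the markers of their label. The 20 astrocyte markers summed to between 16363 and 38714 TPM per library, against 109 to 798 TPM for 13 neuronal markers, 358 to 2730 TPM for 13 oligodendrocyte markers, 285 to 3299 TPM for 12 endothelial markers, 93.9 to 338 TPM for 12 microglial markers and 1302 to 5039 TPM for 8 pericyte and mural cell markers. Red cell markers varied most, with sums of 439 to 67757 TPM. Libraries fell into 3 ranges by the number of genes listed at 0. There were 4109 to 4819 such genes at P7, P14, 18m and in 12m replicates 1 and 2, 2854 to 3523 at P21, P28 and P60, and 1155 to 1704 at 3m, 6m and in 12m replicate 3. P14 vs P7, 18m vs P7 and 6m vs 3m therefore compared libraries of 1 range, while P60 vs P7, 3m vs P60 and 18m vs 3m compared libraries of different ranges. Replicate 4 at 3m stood apart. In that library the 15 ER genes summed to 4739 TPM and the 14 cytosolic genes to 5720 TPM, against 2188 to 3343 TPM and 2939 to 3727 TPM in the other 3m libraries. Its astrocyte markers summed to 18044 TPM and its 8 ependymal markers to 3250 TPM, against 22831 to 28934 TPM and 999 to 1711 TPM in the others. Replicate 5 was the next highest at 3m in ER genes.

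Across the 6 age comparisons, the most members differed between P60 and P7. Values were compared as log2(TPM + 1) with limma over 14590 genes, among which all 42 rows passed the filter on low values, and an adjusted p under 0.05 made a call. A log2 fold change on that scale understates the change of genes with few TPM. In P60 against P7, 30 of 42 rows were called, 7 higher and 23 lower, where 52.8% of all genes tested were called (19.5% higher, 33.3% lower). In 18m against P7, 21 rows were called, 6 higher and 15 lower (29.6% of all genes, 4.67% higher and 24.9% lower). In 18m against 3m, 16 rows were called, 2 higher and 14 lower (37.5% of all genes, 4.16% higher and 33.4% lower). In 3m against P60, 16 rows were called, 14 higher and 2 lower (10.2% of all genes, 8.26% higher and 1.93% lower). In P14 against P7, 4 rows were called, 1 higher and 3 lower (11.8% of all genes, 3.28% higher and 8.57% lower). In 6m against 3m, 2 rows were called, both higher (9.32% of all genes, 2.07% higher and 7.25% lower). The test over all 9 ages called 31 rows, against 63.6% of all genes.

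Scaling moved these splits, since the median gene itself shifted on the TPM scale. The median log2 fold change of all genes was -0.15 in P60 vs P7, -0.20 in 18m vs P7, -0.24 in 18m vs 3m and 0.12 in 3m vs P60. After median-of-ratios rescaling, which brings these medians to between -0.03 and 0.03, the members called were 8 higher and 22 lower in P60 vs P7, 7 higher and 5 lower in 18m vs P7, 6 higher and 2 lower in 18m vs 3m, 7 higher and 3 lower in 3m vs P60, 2 higher and 1 lower in P14 vs P7, and 4 higher in 6m vs 3m. With quantile normalization they were 7 higher and 10 lower in 18m vs P7, 2 higher and 5 lower in 18m vs 3m, and 2 of each in P14 vs P7. Over all 14590 genes, that normalization gave 1191 higher and 1548 lower in 18m vs P7. It gave 2107 and 1823 in 18m vs 3m, and 803 and 782 in P14 vs P7. After median-of-ratios rescaling, calls of lower members thus outnumbered those of higher members in P60 vs P7 and in neither comparison with 18m. Over all genes, that rescaling gave 4122 higher and 3125 lower in P60 vs P7, and 1586 and 1334 in 18m vs P7. It gave 2564 and 2770 in 18m vs 3m, and 660 and 689 in 3m vs P60. In P14 vs P7 the calls were 1068 and 609, and in 6m vs 3m they were 888 and 1020. In 18m vs P7 higher calls thus also outnumbered lower ones over all genes.

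**Figure D1:**
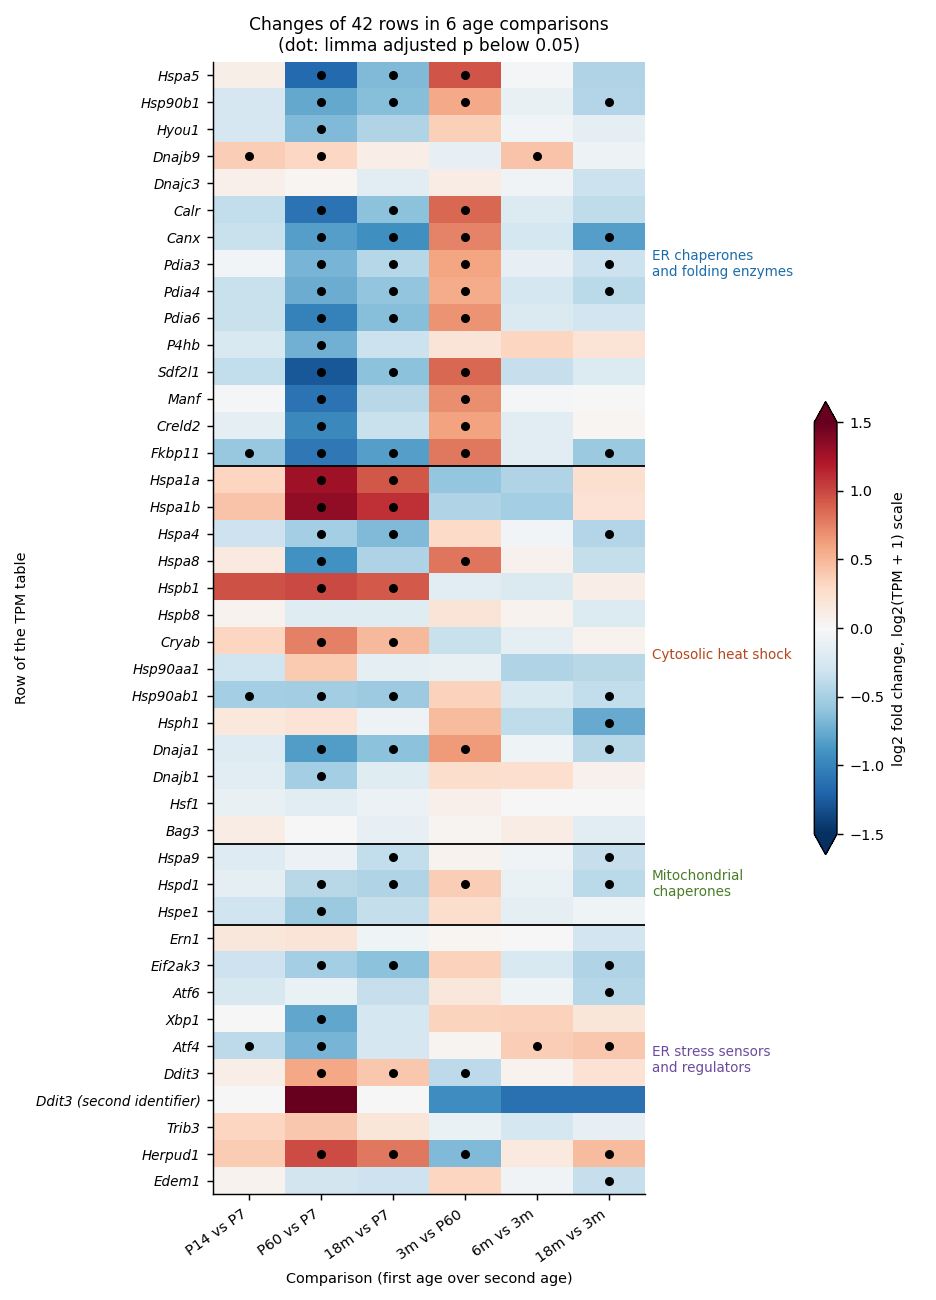
Log2 fold change of each of the 42 rows (vertical) in 6 age comparisons (horizontal, first age over second), on the log2(TPM + 1) scale from limma, with colours saturating at 1.5 in either direction and a dot where the adjusted p was under 0.05. The column for P60 vs P7 holds 30 dots, 23 of them on lower rows, and 13 of these belong to the 15 ER chaperones and folding enzymes.

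ER chaperones and folding enzymes had their highest mean at P7 in 12 of 15 genes and their lowest at P60 in 11. The share of all genes with these extremes was not counted. In P60 against P7, 13 of the 15 fell and Dnajb9 rose, where 33.3% of all genes fell and 19.5% rose. The median log2 fold change of the 15 was -0.83, beside -0.15 over all genes tested, and after median-of-ratios rescaling it was -0.65 with the same 13 lower. That rescaling called 3125 of all 14590 genes lower, with a median of 0.007. In bulk RNA, a smaller share of cells with a high level and less RNA per cell cannot be told apart. The test over 9 ages called 13 of the 15, all but Hyou1 and Dnajc3.

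Sequences upstream of these genes are shown for the known ER stress response element, CCAAT followed by 9 bases of any kind and CCACG. It is the site through which ATF6 acts with NF-Y, and its part in the age changes was not tested. RefSeq (GRCm38.p6) promoters were at hand for 32 of the 41 genes, 13 of them ER chaperones or folding enzymes, and the 250 bases before each RefSeq start were searched on both strands. The element occurred before 7 of the 13 ER genes (53.8%), against 35 of 27025 genes of the genome (0.13%). The members were chosen by name as unfolded protein response genes, so this share does not bear on the changes with age. The 7 were Hspa5, Calr, Hsp90b1, Canx, Pdia6, Dnajc3 and Creld2, and Hsp90b1 had it at 2 places. Of these 7, 6 fell in P60 vs P7, and of the 6 searched ER genes without a match 5 fell (Pdia3, Pdia4, P4hb, Sdf2l1 and Fkbp11), while Dnajb9 rose. The Hspa5 match lies inside the gene span of the annotation given below, upstream of the RefSeq start. A match describes letters only and is not a measured binding site. Each stretch is written 5′ to 3′ on the strand of the gene, with the conserved ends of the element in capitals.

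Hspa5, chr2:34772020-34772048, + strand, 65 to 47 bases before the start: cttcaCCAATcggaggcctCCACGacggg

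Calr, chr8:84847070-84847098, - strand, element on the opposite strand, 162 to 144 bases before the start: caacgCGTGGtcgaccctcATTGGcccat

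Hsp90b1, chr10:86705633-86705661, - strand, 212 to 194 bases before the start: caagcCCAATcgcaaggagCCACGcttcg

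Hsp90b1, chr10:86705528-86705556, - strand, element on the opposite strand, 107 to 89 bases before the start: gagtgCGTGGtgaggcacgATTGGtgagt

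Canx, chr11:50325795-50325823, - strand, 145 to 127 bases before the start: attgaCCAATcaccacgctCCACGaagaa

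Pdia6, chr12:17266486-17266514, + strand, 98 to 80 bases before the start: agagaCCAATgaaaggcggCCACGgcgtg

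Dnajc3, chr14:118937822-118937850, + strand, 105 to 87 bases before the start: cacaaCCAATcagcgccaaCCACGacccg

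Creld2, chr15:88819515-88819543, + strand, element on the opposite strand, 126 to 108 bases before the start: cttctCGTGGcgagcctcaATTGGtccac

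The whole 250 bases before the start are given for Canx and Creld2, a lectin chaperone and an ER factor that can be secreted, to show the spacing around the element.

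Canx, chr11:50325674-50325923, - strand: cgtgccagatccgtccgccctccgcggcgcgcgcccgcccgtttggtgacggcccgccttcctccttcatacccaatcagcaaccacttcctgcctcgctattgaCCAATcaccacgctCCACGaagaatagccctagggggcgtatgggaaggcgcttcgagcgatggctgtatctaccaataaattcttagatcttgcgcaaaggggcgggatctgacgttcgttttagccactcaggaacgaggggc

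Creld2, chr15:88819396-88819645, + strand: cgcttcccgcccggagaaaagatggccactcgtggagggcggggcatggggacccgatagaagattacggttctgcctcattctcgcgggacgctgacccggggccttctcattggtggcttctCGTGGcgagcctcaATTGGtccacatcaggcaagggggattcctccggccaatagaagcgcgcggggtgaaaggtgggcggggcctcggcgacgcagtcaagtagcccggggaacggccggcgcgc

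Hspa5 encodes BiP, the Hsp70 of the ER lumen (GRCm38 chr2:34771970-34777547, + strand). It measured 246, 294 and 286 TPM in the P60 libraries, against 579, 622, 632 and 636 TPM in the P7 libraries. Every P60 library lay below every P7 library, and the P60 mean was 2.24-fold lower (-1.17 ± 0.25 as log2 fold change and SE, limma adjusted p = 0.000575). Calr, the calcium-binding lectin calreticulin (chr8:84841850-84846934, - strand), measured 235, 255 and 228 TPM at P60, against 498, 425, 575 and 574 TPM at P7. Again no libraries overlapped, with a 2.17-fold lower mean at P60 (-1.10 ± 0.18, limma adjusted p = 6.43e-05). Its membrane-bound relative Canx, calnexin (chr11:50293961-50325673, - strand), had 101, 118 and 94.5 TPM at P60, against 186, 181, 184 and 193 TPM at P7. The P60 libraries were all lower, by 1.78-fold on the mean (-0.83 ± 0.15, limma adjusted p = 0.000142).

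The ER Hsp90, GRP94 (Hsp90b1, chr10:86690209-86705509, - strand), measured 180.0, 184 and 189 TPM at P60, against 321, 307, 311 and 318 TPM at P7. Both groups were tight and far apart, with a 1.71-fold lower mean at P60 (-0.77 ± 0.17, limma adjusted p = 0.00063). Fkbp11, a prolyl isomerase of the secretory pathway (chr15:98724366-98728198, - strand), gave the smallest p of the ER genes. It had 7.45, 8.03 and 7.83 TPM at P60, against 19.5, 17.0, 17.0 and 16.3 TPM at P7, a 2.24-fold lower mean (-1.07 ± 0.17, limma adjusted p = 3.5e-05). Hspa5, Hsp90b1, Calr, Canx and Fkbp11 stayed lower and called under all 16 alternatives tried for this comparison.

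The other 8 genes that fell were the disulfide isomerases Pdia3, Pdia4, Pdia6 and P4hb, the stromal-derived factor-like BiP partner Sdf2l1, the secreted factors Manf and Creld2, and the nucleotide exchange factor Hyou1. Their mean TPM at P60 was 1.62-fold (Pdia3) to 2.50-fold (Sdf2l1) lower than at P7, none overlapped between the ages, and their adjusted p ranged from 0.000343 for Sdf2l1 to 0.0119 for Hyou1. The share of all genes without overlap between these ages was not counted, and 33.3% of all genes were called lower. Pdia3, Pdia6 and Manf share exon sequence with genes on the opposite strand (Catsper2, Atp6v1c2 and Dcaf1, and Manf also with Rbm15b on its own strand), and the strand setting of the counting is not given in the sources used here.

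Dnajb9 (ERdj4), a BiP co-chaperone that acts in ER-associated degradation and restrains IRE1, went against its class. It measured 39.9, 36.2 and 36.7 TPM at P60, against 30.5, 27.5, 32.5 and 30.3 TPM at P7. The P60 libraries were all higher, by 1.25-fold on the mean (0.31 ± 0.12, limma adjusted p = 0.0329), and the call was lost under 7 of 16 alternatives. Dnajc3 (p58IPK), a BiP co-chaperone that inhibits PERK, averaged 54.4 ± 5.79 TPM at P60 (n = 3) and 53.2 ± 3.91 TPM at P7 (SD, n = 4), and its libraries overlapped.

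Markers of astrocytes and of other cell types moved in the same comparison, where 19.5% of all genes were higher and 33.3% lower. Of 20 astrocyte markers, 11 were higher and 4 lower. The 20 summed to 30976 to 31883 TPM at P60, against 16363 to 20159 TPM at P7. In P60 against P7, 10 of 13 neuronal markers, 8 of 8 ependymal markers and 6 of 12 microglial markers were higher, 9 oligodendrocyte markers were higher and 2 lower of 13, and 7 of 12 endothelial and 5 of 7 fibroblast markers were lower. The neuronal markers summed to 416 to 798 TPM at P60, against 112 to 139 TPM at P7, the ependymal markers to 1639 to 3440 TPM at P60, against 500.2 to 661 TPM at P7, and the fibroblast markers to 201 to 259 TPM at P60, against 462 to 764 TPM at P7. With the neuronal, oligodendrocyte and endothelial means as covariates, 7 of the 15 ER genes were lower, all 7 among the 13, and their median log2 fold change was -0.64. Of all 14590 genes, 1973 were lower with these covariates, with a median of -0.10. The part of astrocyte, fibroblast, microglial and ependymal markers was not tested. Within the range of libraries that holds P21, P28 and P60, all P60 libraries lay below all P21 and P28 libraries for 6 of the 15 ER genes (Hspa5, Hsp90b1, Calr, Pdia3, Sdf2l1 and Manf), where 10.8% of all genes did so. Hspa5, for example, lay between 246 and 294 TPM at P60, against 395 to 487 TPM at P21 and P28.

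**Figure D2:**
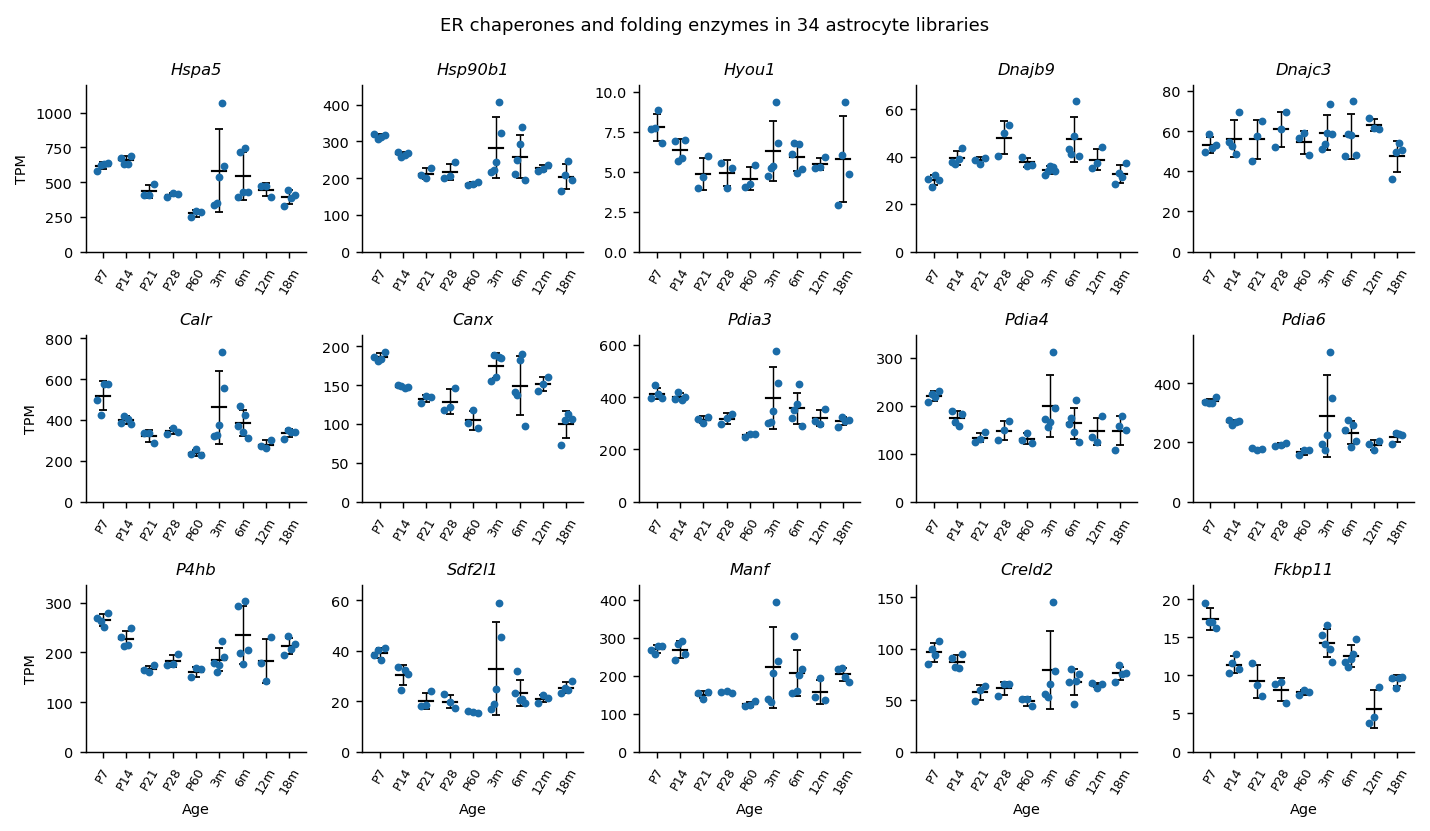
TPM (vertical) of the 15 ER chaperones and folding enzymes by age (horizontal), with a point per library, a bar for the mean and whiskers of 1 SD (n = 3 to 5). Most genes start high at P7 and are lowest at P60, as Hspa5 is with 246 to 294 TPM at P60, while replicate 4 lies above the other 3m libraries in 12 of the 15.

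By P14, few ER genes were called. Of the 15, Fkbp11 fell and Dnajb9 rose in P14 against P7. Fkbp11 measured 10.3, 11.6, 12.8 and 10.9 TPM at P14, against 19.5, 17.0, 17.0 and 16.3 TPM at P7, with no overlap (-0.57 ± 0.15, limma adjusted p = 0.0188). Dnajb9 measured 37.6, 37.1, 39.1 and 43.9 TPM at P14, against 30.5, 27.5, 32.5 and 30.3 TPM at P7, and all P14 libraries were higher (0.37 ± 0.11, limma adjusted p = 0.0304). Hspa5 averaged 655 ± 29.7 TPM at P14 and 617 ± 25.9 TPM at P7 (SD, n = 4 each) and was not called. Both calls were lost with the cell type covariates and without P7 replicate 1 or P14 replicate 4, Dnajb9 also without P7 replicates 2 or 4 or P14 replicates 2 or 3, and Fkbp11 also after median-of-ratios rescaling.

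At 3m the ER genes were higher than at P60. In 3m against P60, 11 of the 15 rose, where 8.26% of all genes did. The median log2 fold change of the 15 was 0.60, beside 0.12 over all genes. Hspa5 measured 337, 351, 537, 1069.7 and 616 TPM at 3m, against 246, 294 and 286 TPM at P60, and all 3m libraries were higher (0.95 ± 0.24, limma adjusted p = 0.0105). Calr measured 319.6, 326, 375, 732 and 555 TPM at 3m, against 235, 255 and 228 TPM at P60, again with no overlap (0.87 ± 0.17, limma adjusted p = 0.00174). For both genes 3m replicates 4 and 5 were the highest. Canx, in contrast, was raised evenly, with 155, 188, 161, 186 and 185 TPM at 3m, against 101, 118 and 94.5 TPM at P60 (0.74 ± 0.14, limma adjusted p = 0.00121). Fkbp11 was likewise spread little, with 15.3, 14.2, 16.6, 13.4 and 11.7 TPM at 3m, against 7.45, 8.03 and 7.83 TPM at P60 (0.79 ± 0.16, limma adjusted p = 0.00175).

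Leaving out 3m replicates 4 and 5 left 3 of the 11 higher, Calr, Canx and Fkbp11, with a class median of 0.31. Of all 14590 genes, 596 were then higher, against 1205 with all libraries, and the median was 0.11. After median-of-ratios rescaling of all libraries, 5 of the 11 were higher and 1 other ER gene was lower. That rescaling called 660 of all genes higher and 689 lower. Without 3m replicate 4 alone 5 of the 15 were higher, without 3m replicate 5 alone 6 were, and without P60 replicates 1, 2 or 3 the counts were 4, 5 and 5. With the number of genes at 0 as a covariate none of the 15 was called in limma, and 8 had an unadjusted p under 0.05. Over all genes that covariate left 220 higher and 276 lower. In this comparison 4 of 7 fibroblast markers and 3 of 12 endothelial markers were higher, and 4 of 13 oligodendrocyte markers were lower. Over all genes 8.26% were higher and 1.93% lower. The fibroblast markers summed to 271 to 652 TPM at 3m, against 201 to 259 TPM at P60, and the oligodendrocyte markers to 629 to 2270.1 TPM at 3m, against 1507 to 2608 TPM at P60. The part of the fibroblast markers was not tested. With the neuronal, oligodendrocyte and endothelial covariates 5 of the 15 ER genes were higher, where 1113 of all 14590 genes were.

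Between the oldest and youngest ages, 9 of the 15 ER genes fell in 18m against P7, where 24.9% of all genes did. The median of the 15 was -0.60 (all genes -0.20). In this comparison 4 of 7 fibroblast markers were lower, and 4 of 8 ependymal and 4 of 13 oligodendrocyte markers were higher. Over all genes 24.9% were lower and 4.67% higher. With the neuronal, oligodendrocyte and endothelial covariates 3 of the 15 ER genes were lower. Of all 14590 genes, 3937 were lower with these covariates, against 3634 without them. The part of the fibroblast and ependymal markers was not tested. Canx measured 73.1, 105, 113 and 106 TPM at 18m, against 186, 181, 184 and 193 TPM at P7, a 1.87-fold lower mean with no overlap (-0.92 ± 0.14, limma adjusted p = 2.52e-05). Fkbp11 measured 9.71, 8.30, 9.66 and 9.78 TPM at 18m, against 19.5, 17.0, 17.0 and 16.3 TPM at P7 (-0.83 ± 0.15, limma adjusted p = 0.000249). Hsp90b1 measured 165, 209, 246 and 196 TPM at 18m, against 321, 307, 311 and 318 TPM at P7 (-0.64 ± 0.15, limma adjusted p = 0.003). In each of these genes all 18m libraries lay below all P7 libraries, and the call held under all 17 alternatives. After median-of-ratios rescaling, 3 of the 9 were lower and 1 gene outside them was higher, with a median of -0.33. Of all 14590 genes, 1334 were then lower and 1586 higher, with a median of 0.03. Hspa5 (391 ± 50.6 TPM at 18m and 617 ± 25.9 TPM at P7, SD, n = 4 each) was called lower on the TPM scale (limma adjusted p = 0.0292). It was not called after that rescaling, with quantile normalization, with the cell type covariates, or without any 1 of P7 replicates 2, 3 and 4 and 18m replicate 1.

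In 18m against 3m, 5 of the 15 fell (Canx, Fkbp11, Hsp90b1, Pdia3 and Pdia4), a share close to the 33.4% of all genes, and the class median of -0.32 lay near that of all genes, -0.24. Canx had 73.1, 105, 113 and 106 TPM at 18m, against 155, 188, 161, 186 and 185 TPM at 3m, a 1.76-fold lower mean with no overlap (-0.83 ± 0.13, limma adjusted p = 5.44e-05). Its call was lost under 1 of 20 alternatives, the covariate for genes at 0. Fkbp11 averaged 9.36 ± 0.71 TPM at 18m (n = 4) and 14.3 ± 1.85 TPM at 3m (SD, n = 5), without overlap (-0.55 ± 0.15, limma adjusted p = 0.0045), and its call was lost under 4 of 20 alternatives, median-of-ratios rescaling among them. Hsp90b1 averaged 204 ± 33.3 TPM at 18m (n = 4) and 283 ± 82.3 TPM at 3m (SD, n = 5), and its libraries overlapped (-0.44 ± 0.15, limma adjusted p = 0.0187). Without 3m replicate 4, without 3m replicate 5 or without 18m replicate 1, 2 of the 5 were lower. After median-of-ratios rescaling 1 of the 5 was, with 1 other ER gene higher, where 2770 of all 14590 genes were lower and 2564 higher. Dnajb9 was the ER gene that rose in 6m against 3m, with 43.2, 41.4, 48.8, 63.4 and 40.3 TPM at 6m, against 32.3, 34.2, 36.3, 35.6 and 33.9 TPM at 3m (0.43 ± 0.10, limma adjusted p = 0.00963). All 6m libraries were above all 3m libraries, and the call was lost without 3m replicates 4 and 5, with only both ages fitted and with the cell type covariates. All 8 ependymal markers were lower at 6m, where 7.25% of all genes were. These markers summed to 404 to 1299.9 TPM at 6m, against 999 to 3250 TPM at 3m, and their part was not tested.

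Cytosolic heat shock genes did not move as a block. In P60 against P7, 4 of 14 rose and 5 fell, where 19.5% of all genes rose and 33.3% fell. The share that fell was thus near that of all genes. Those that rose were the inducible Hsp70 genes Hspa1a and Hspa1b and the small heat shock proteins Hspb1 and Cryab. Those that fell were the constitutive chaperones Hspa8 and Hsp90ab1, the Hsp110 family member Hspa4, and the J-domain co-chaperones Dnaja1 and Dnajb1. The class median was -0.08. Hspb8, Hsp90aa1, Hsph1, Bag3 and Hsf1 itself were not called.

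Hspa1a and Hspa1b are neighbouring, nearly identical copies (chr17:34969190-34972156 and chr17:34956436-34959238, both - strand), so that reads could be divided between them with error. Hspa1a measured 9.93, 23.7 and 13.0 TPM at P60, against 5.16, 8.23, 5.83 and 3.43 TPM at P7 (1.28 ± 0.37, limma adjusted p = 0.00623). Hspa1b measured 8.71, 19.5 and 13.6 TPM at P60, against 3.53, 7.79, 4.14 and 4.03 TPM at P7 (1.33 ± 0.38, limma adjusted p = 0.00526). All P60 libraries were higher than all P7 libraries for both copies, and the means were 2.75-fold and 2.86-fold higher. The lowest mean of either gene over the 9 ages was at P7, and at 18m the libraries split, with Hspa1a at 16.9 and 16.2 TPM in replicates 1 and 3, against 7.27 and 8.06 TPM in replicates 2 and 4. In 18m against P7 both copies were still called higher with overlapping libraries (Hspa1a 0.94 ± 0.34, limma adjusted p = 0.0409), and both calls were lost without P7 replicate 1, P7 replicate 4, 18m replicate 1 or 18m replicate 3, and that of Hspa1a also without P7 replicate 3 and with no filter on low values. In P60 against P7 the call of Hspa1a was lost without P60 replicate 2. With Hspa1a and Hspa1b summed into 1 row, that row was called higher in P60 vs P7 and in 18m vs P7.

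Hspb1 (Hsp27), a small heat shock protein that binds unfolded clients without ATP, measured 134, 171 and 214 TPM at P60, against 82.8, 121, 68.6 and 76.8 TPM at P7. The P60 libraries were all higher (0.99 ± 0.35, limma adjusted p = 0.0198), although the call was lost without P7 replicate 3 or P60 replicate 3. Cryab (chr9:50751325-50756636, + strand) was the most abundant small heat shock gene. It measured 426, 546 and 445 TPM at P60, against 300.1, 311, 258 and 243 TPM at P7, a 1.70-fold higher mean with no overlap (0.76 ± 0.16, limma adjusted p = 0.000404). All P60 libraries also exceeded the 337 to 414 TPM of P21 and P28. Cryab shares exon sequence with Hspb2 on the opposite strand, is also made by oligodendrocytes, and was not called with the cell type covariates (limma adjusted p = 0.105). In 18m against P7, Cryab stayed higher with 297, 316, 511 and 467 TPM at 18m, against 300.1, 311, 258 and 243 TPM at P7, where 1 of the 18m libraries lay in the P7 range (0.48 ± 0.14, limma adjusted p = 0.0134). That call was lost without 18m replicate 3, without 18m replicate 4, with only both ages fitted and with the cell type covariates.

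Among the constitutive chaperones, Hspa8 (Hsc70) was the most abundant of all 41 genes. It measured 675, 885 and 956 TPM at P60, against 1479, 1580.2, 1519.6 and 1681 TPM at P7, a 1.87-fold lower mean with no overlap (-0.91 ± 0.21, limma adjusted p = 0.00099). Dnaja1, its J-domain partner, measured 146, 159.5 and 169 TPM at P60, against 280.4, 289, 273 and 291 TPM at P7 (-0.84 ± 0.17, limma adjusted p = 0.000365). The 2 groups were narrow and did not overlap in either gene. Hspa4, a nucleotide exchange factor of the Hsp110 family, measured 16.6, 18.3 and 18.9 TPM at P60, against 26.7, 27.2, 26.1 and 23.4 TPM at P7 (-0.50 ± 0.15, limma adjusted p = 0.00626). Dnaja1 and Hspa4 kept their calls under all 16 alternatives, whereas Hspa8 was lost with the cell type covariates (limma adjusted p = 0.0702). Dnaja1 shares exon sequence with Smu1 on the opposite strand.

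Hsp90ab1, the constitutive cytosolic Hsp90, was the cytosolic gene that fell by P14, with 524, 403, 453 and 473 TPM at P14, against 635, 658, 629 and 704 TPM at P7 (-0.51 ± 0.15, limma adjusted p = 0.025). That call was lost under 7 of 17 alternatives, among them the cell type covariates and leaving out any of 6 single libraries. Of the 14 cytosolic genes, 7 were called in 18m against P7, with Hspa1a, Hspa1b, Hspb1 and Cryab higher and Hspa4, Dnaja1 and Hsp90ab1 lower. Over all genes 4.67% were called higher and 24.9% lower. Hsp90ab1 measured 367, 469.5, 552 and 423 TPM at 18m, all below P7 (-0.55 ± 0.15, limma adjusted p = 0.00609). Hspa4 measured 10.9, 16.9, 18.3 and 19.3 TPM at 18m, also below every P7 library (-0.66 ± 0.14, limma adjusted p = 0.000841), a call that held under all 17 alternatives. Hsp90ab1 and Dnaja1 were not called after median-of-ratios rescaling. The inducible Hsp90aa1 was not called in any of the 6 comparisons. It had 999.7, 553 and 557 TPM at P60, against 514, 563, 446 and 550.4 TPM at P7, and a single P60 library carried the higher mean. Hsf1, the transcription factor of the heat shock response, stayed between 28.5 and 43.9 TPM in all 34 libraries. It was called in none of the 6 comparisons, nor in the test over 9 ages (limma adjusted p = 0.936).

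In 3m against P60, Hspa8 and Dnaja1 were the cytosolic genes that rose. Hspa8 measured 983, 1135, 1581, 2495 and 1435 TPM at 3m, against 675, 885 and 956 TPM at P60, with 3m replicate 4 far above the rest (0.80 ± 0.20, limma adjusted p = 0.0102). Dnaja1 averaged 252 ± 57.4 TPM at 3m (n = 5) and 158 ± 11.6 TPM at P60 (SD, n = 3, 0.64 ± 0.16, limma adjusted p = 0.0106). Both were lost without 3m replicates 4 and 5 together or without P60 replicate 1, and Hspa8 also with only both ages fitted. In 18m against 3m, 4 of 14 fell, which were Hspa4, Hsph1, Dnaja1 and Hsp90ab1, a share below the 33.4% of all genes that fell. Hspa4 measured 10.9, 16.9, 18.3 and 19.3 TPM at 18m, against 23.1, 23.1, 20.1, 24.5 and 19.7 TPM at 3m (-0.44 ± 0.13, limma adjusted p = 0.00943). All 18m libraries lay below all 3m libraries, and 18m replicate 1 lay far below. Hsph1, the stress-inducible Hsp110, measured 13.9, 26.5, 27.6 and 25.5 TPM at 18m, against 27.9, 28.9, 39.1, 79.8 and 35.3 TPM at 3m (-0.76 ± 0.28, limma adjusted p = 0.0357). Its highest 3m library was again replicate 4, and Hsph1, Dnaja1 and Hsp90ab1 were not called without 3m replicates 4 and 5, when Hspa4 was the cytosolic gene still lower. Hsph1 and Dnaja1 were also not called without 3m replicate 4 alone. Hspa4 was lost under 4 of 20 alternatives, which were quantile normalization, the covariate for genes at 0 (limma adjusted p = 0.604), only both ages fitted and without 18m replicate 1.

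**Figure D3:**
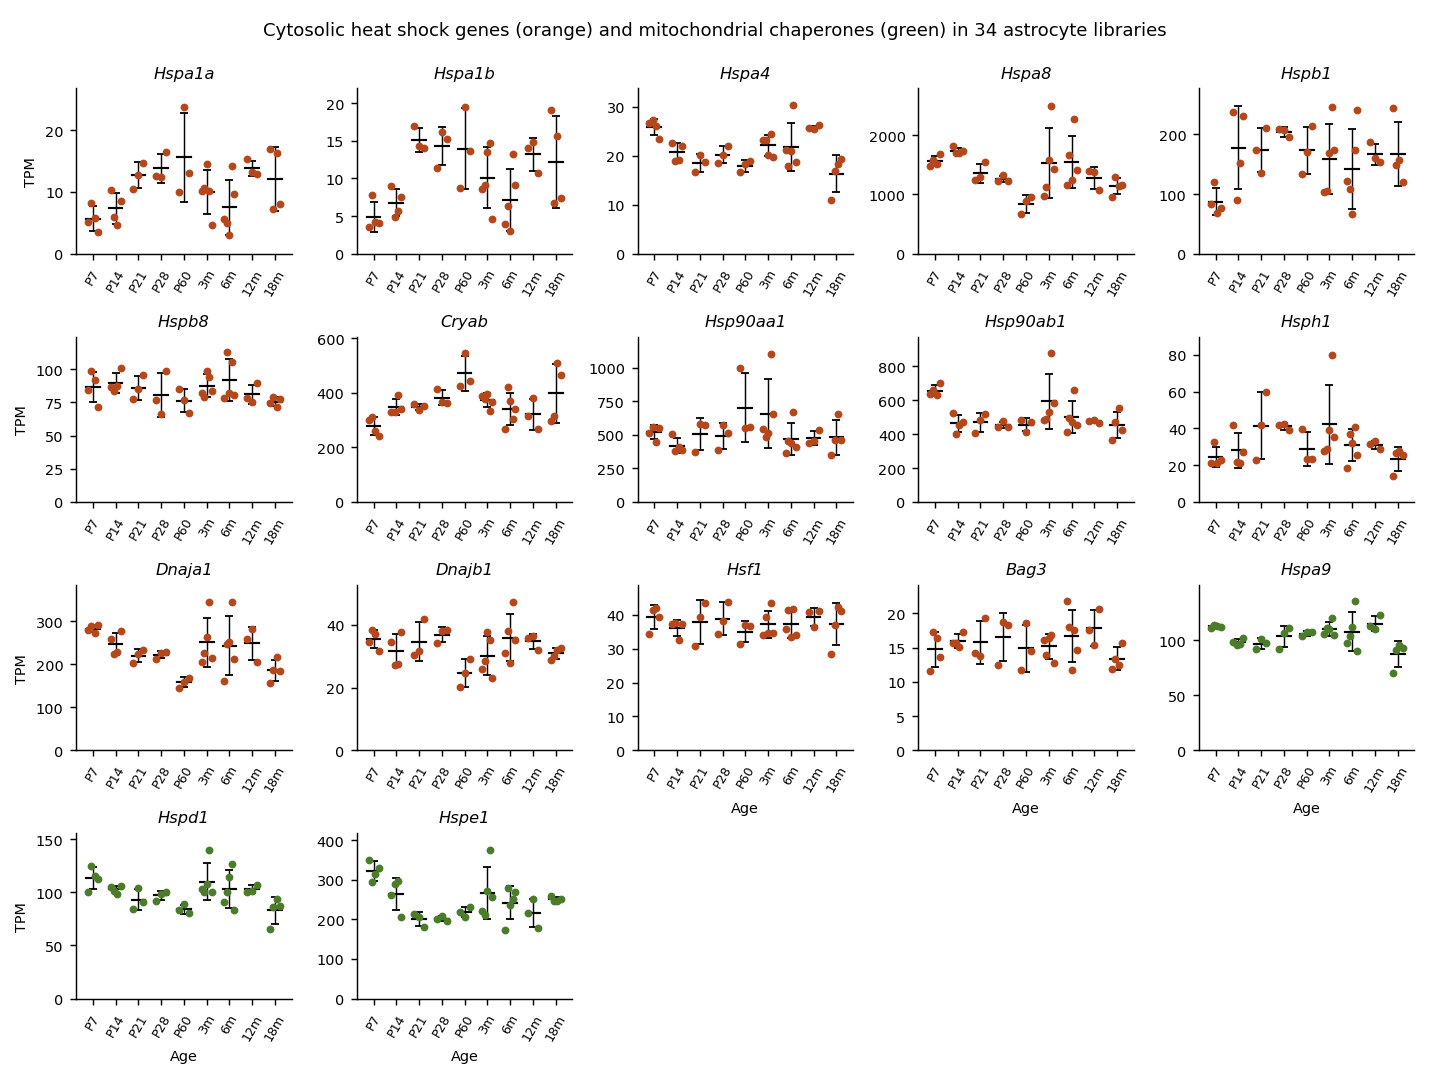
TPM (vertical) of the 14 cytosolic heat shock genes in orange and the 3 mitochondrial chaperones in green by age (horizontal), with a point per library, a bar for the mean and whiskers of 1 SD (n = 3 to 5). Hspa1a, Hspa1b, Hspb1 and Cryab are lowest at P7, Hspa8 and Dnaja1 are lowest at P60, and Hsf1 stays between 28.5 and 43.9 TPM in every library.

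The mitochondrial chaperones are the matrix Hsp70, mortalin (Hspa9), and the Hsp60 and Hsp10 partners (Hspd1 and Hspe1) that form a folding chamber. Hspd1 (chr1:55077835-55088243, - strand) and Hspe1 (chr1:55088132-55091307, + strand) are read in opposite directions from a shared start region, and their first exons overlap there. RefSeq gives Hspd1 an outer and an inner start. A heat shock element lay in the 250 bases before the start of Hspe1 and before the inner start of Hspd1, and none was found in the window before its outer start. The element, which lies inside the Hspd1 span given above, was searched on both strands as GAA, TTC and GAA, or TTC, GAA and TTC, with 2 bases of any kind between the units, and it is the same stretch of DNA for both genes. The element occurred in these 2 of the 32 member genes with a promoter (6.25%), against 0.514% of the 27025 genes. None of the 9 cytosolic heat shock genes searched had a match to this strict pattern, Hspa1a, Hspa1b and Hspb1 included. The unfolded protein response element core, TGACGTGG, was found before none of the 32. The C/EBP-ATF composite, TGATGNAA, was found before 1 of the 32 (Herpud1, 3.125%), against 3.907% of all genes. The units are in capitals below, on the strand of each gene.

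Hspe1, chr1:55088054-55088081, + strand: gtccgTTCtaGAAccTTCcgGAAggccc

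Hspd1, chr1:55088054-55088081, - strand: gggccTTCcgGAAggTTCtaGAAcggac

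Hspe1 measured 219, 207 and 231 TPM at P60, against 351, 294, 316 and 329 TPM at P7, a 1.48-fold lower mean with no overlap (-0.56 ± 0.15, limma adjusted p = 0.00402). Hspd1 measured 83.3, 88.7 and 80.4 TPM at P60, against 99.9, 125, 116 and 112 TPM at P7 (-0.42 ± 0.13, limma adjusted p = 0.00713), and the P60 libraries were all lower. Hspe1 was lost after median-of-ratios rescaling and with the covariate for genes at 0, and Hspd1 after quantile normalization and with the cell type covariates. Hspd1 rose in 3m against P60, with 103, 99.8, 108, 140.1 and 99.9 TPM at 3m (0.37 ± 0.12, limma adjusted p = 0.0448), a call lost under 12 of 18 alternatives, leaving out 3m replicate 4 among them.

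At 18m the 3 genes were not called alike. Hspd1 measured 64.9, 85.8, 93.6 and 86.8 TPM at 18m, against 103, 99.8, 108, 140.1 and 99.9 TPM at 3m (-0.41 ± 0.11, limma adjusted p = 0.00538), with every 18m library below every 3m library. Hspa9 measured 70.0, 90.9, 95.7 and 92.6 TPM at 18m, against 105, 111, 109.8, 120.3 and 105 TPM at 3m (-0.34 ± 0.09, limma adjusted p = 0.00469), also without overlap. Hspe1 overlapped, with 258, 247, 247 and 252 TPM at 18m, against 221, 212, 271, 377 and 257 TPM at 3m (-0.06 ± 0.13, limma adjusted p = 0.751). The difference between Hspe1 and the other 2 genes was not tested. Hspd1 and Hspa9 were lower without 3m replicates 4 and 5 and with 6m in place of 3m, and neither was called after median-of-ratios rescaling or with the covariate for genes at 0. In 18m against P7 the same 2 genes fell (Hspa9 -0.37 ± 0.10, limma adjusted p = 0.00516, and Hspd1 -0.45 ± 0.12, adjusted p = 0.00487), which also did not hold under that rescaling.

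Sensors and regulators of ER stress went in both directions. In P60 against P7, Herpud1 and Ddit3 rose and Xbp1, Atf4 and Eif2ak3 fell, of 9 genes and 10 rows. These shares were near those of all genes, of which 19.5% rose and 33.3% fell. Herpud1, an ER membrane protein that organises the degradation of misfolded proteins (chr8:94386438-94395377, + strand), measured 176, 207 and 183 TPM at P60, against 87.3, 108, 97.7 and 89.6 TPM at P7. Its P60 libraries were all higher, by 1.97-fold on the mean (0.97 ± 0.21, limma adjusted p = 0.000638), under all 16 alternatives. Ddit3, the stress-induced factor CHOP (chr10:127290774-127296288, + strand), measured 95.1, 85.2 and 87.0 TPM at P60, against 49.3, 64.7, 59.8 and 65.3 TPM at P7, with no overlap (0.58 ± 0.13, limma adjusted p = 0.000803). It was not called with the cell type covariates (limma adjusted p = 0.295).

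Ddit3 has uncertain values, because its exons overlap Mars on the opposite strand and a second, shorter Ddit3 identifier (chr10:127290829-127293753, + strand). That second row was listed at 0 in 30 libraries and at 22.7, 24.7, 70.2 and 48.3 TPM in P21 replicate 3, P28 replicate 3, P60 replicate 3 and 3m replicate 5. In those 4 libraries the first identifier measured 81.4, 73.0, 87.0 and 71.6 TPM.

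Xbp1, the factor made active by IRE1, fell with the ER chaperones. It measured 84.7, 102 and 104 TPM at P60, against 157, 180.3, 164 and 164 TPM at P7, a 1.71-fold lower mean with no overlap (-0.78 ± 0.16, limma adjusted p = 0.000374), and its P60 libraries also lay below the 111 to 136 TPM of P21 and P28. Its call was lost with the cell type covariates. Atf4, the transcription factor translated when PERK is active (chr15:80255184-80257541, + strand), measured 77.1, 85.0 and 104 TPM at P60, against 133, 143, 153 and 145 TPM at P7 (-0.70 ± 0.11, limma adjusted p = 6.43e-05). Eif2ak3, which encodes PERK, measured 3.35, 4.53 and 4.30 TPM at P60, against 5.56, 5.51, 7.05 and 6.57 TPM at P7 (-0.51 ± 0.15, limma adjusted p = 0.0074). All P60 libraries were lower for both genes. Atf4 held its call under all 16 alternatives, and Eif2ak3 lost it under 3.

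The other sensors were low and were not called in P60 against P7. Ern1 averaged 1.60 ± 0.439 TPM at P60 (n = 3) and 1.25 ± 0.0637 TPM at P7 (SD, n = 4), while Atf6 averaged 4.07 ± 0.284 TPM at P60 and 4.44 ± 0.624 TPM at P7. Trib3, a pseudokinase induced by ATF4 and CHOP, lay between 0.123 and 2.28 TPM in all libraries and was not called in any comparison or over the 9 ages.

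Atf4 was also called in P14 against P7 and in both comparisons of older ages with 3m. By P14 it had fallen to 117, 92.2, 103 and 127 TPM, against 133, 143, 153 and 145 TPM at P7, with no overlap (-0.40 ± 0.11, limma adjusted p = 0.0187), a call lost under 5 of 17 alternatives. It was not called in 3m against P60. It rose in 6m against 3m, with 98.6, 103, 121, 147 and 121 TPM at 6m, against 85.1, 99.5, 93.6, 91.8 and 83.4 TPM at 3m (0.37 ± 0.10, limma adjusted p = 0.0175), where 1 library of 6m lay just under the highest of 3m, and this call was lost without 3m replicate 5, alone or with replicate 4, and with only both ages fitted. In 18m against 3m it rose as well, with 118, 115, 133 and 115 TPM at 18m, all above the 3m libraries (0.40 ± 0.10, limma adjusted p = 0.00298). That call held after median-of-ratios rescaling and without 3m replicates 4 and 5, and was lost with the covariate for genes at 0. With 6m in place of 3m it was not called.

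Herpud1 and Ddit3 fell in 3m against P60 and both rose in 18m against P7. Herpud1 measured 165, 118, 124, 114 and 85.5 TPM at 3m, against 176, 207 and 183 TPM at P60 (-0.66 ± 0.20, limma adjusted p = 0.0339), with all 3m libraries lower. Ddit3 measured 59.2, 68.0, 74.7, 66.4 and 71.6 TPM at 3m, against 95.1, 85.2 and 87.0 TPM at P60 (-0.39 ± 0.12, limma adjusted p = 0.0397), also without overlap. Neither kept its call without 3m replicates 4 and 5, or without any 1 of the P60 libraries, nor without 3m replicate 2 or 4, nor with the covariate for genes at 0. Herpud1 was also lost without 3m replicate 5 and Ddit3 without 3m replicate 1 and with no filter on low values. At 18m Herpud1 measured 136, 161, 175 and 198 TPM, against 87.3, 108, 97.7 and 89.6 TPM at P7 (0.79 ± 0.19, limma adjusted p = 0.00347), a call kept under all 17 alternatives. Ddit3 measured 79.8, 83.4, 75.0 and 78.4 TPM at 18m, against 49.3, 64.7, 59.8 and 65.3 TPM at P7 (0.41 ± 0.12, limma adjusted p = 0.0116), and was lost without P7 replicate 1. All 18m libraries were higher than all P7 libraries in both genes.

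In 18m against 3m, Eif2ak3, Atf6 and Edem1 fell while Atf4 and Herpud1 rose. Eif2ak3 measured 2.52, 3.62, 4.63 and 4.11 TPM at 18m, against 5.13, 4.66, 4.94, 6.30 and 6.00 TPM at 3m (-0.46 ± 0.13, limma adjusted p = 0.009). Atf6 measured 2.11, 3.74, 3.51 and 3.91 TPM at 18m, against 4.07, 5.21, 4.57, 5.20 and 4.60 TPM at 3m (-0.43 ± 0.13, limma adjusted p = 0.0123). Edem1, a lectin that hands misfolded glycoproteins to degradation, measured 5.21, 6.36, 6.02 and 5.99 TPM at 18m, against 7.98, 8.35, 8.65, 7.62 and 6.46 TPM at 3m (-0.35 ± 0.12, limma adjusted p = 0.0252). No libraries overlapped in these genes, and the share of all genes without overlap was not counted. The lowest of Eif2ak3, Atf6 and Edem1 at 18m was replicate 1. None of the 3 was called after median-of-ratios rescaling, with quantile normalization or with the covariate for genes at 0. Nor was any of the 3 called without 18m replicate 1 or with 6m in place of 3m. Without 3m replicates 4 and 5 together Eif2ak3 and Atf6 were not called and Edem1 was, and all 3 were called without either library alone. Edem1 was also lost without 3m replicate 2 or 3. Herpud1 averaged 168 ± 26.1 TPM at 18m (n = 4) and 121 ± 28.5 TPM at 3m (SD, n = 5) with overlap (limma adjusted p = 0.0409), lost under 13 of 20 alternatives. In this comparison 9 of 13 neuronal, 4 of 12 microglial and 3 of 7 fibroblast markers were lower, where 33.4% of all genes were. The microglial share was thus that of all genes. Of 20 astrocyte markers, 9 were lower and 4 higher. The neuronal markers summed to 109 to 229.5 TPM at 18m, against 232 to 721 TPM at 3m. With the cell type covariates Herpud1, Atf6 and Edem1 were no longer called. In 18m against P7, Eif2ak3 fell too (-0.62 ± 0.14, limma adjusted p = 0.00183), under all 17 alternatives.

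**Figure D4:**
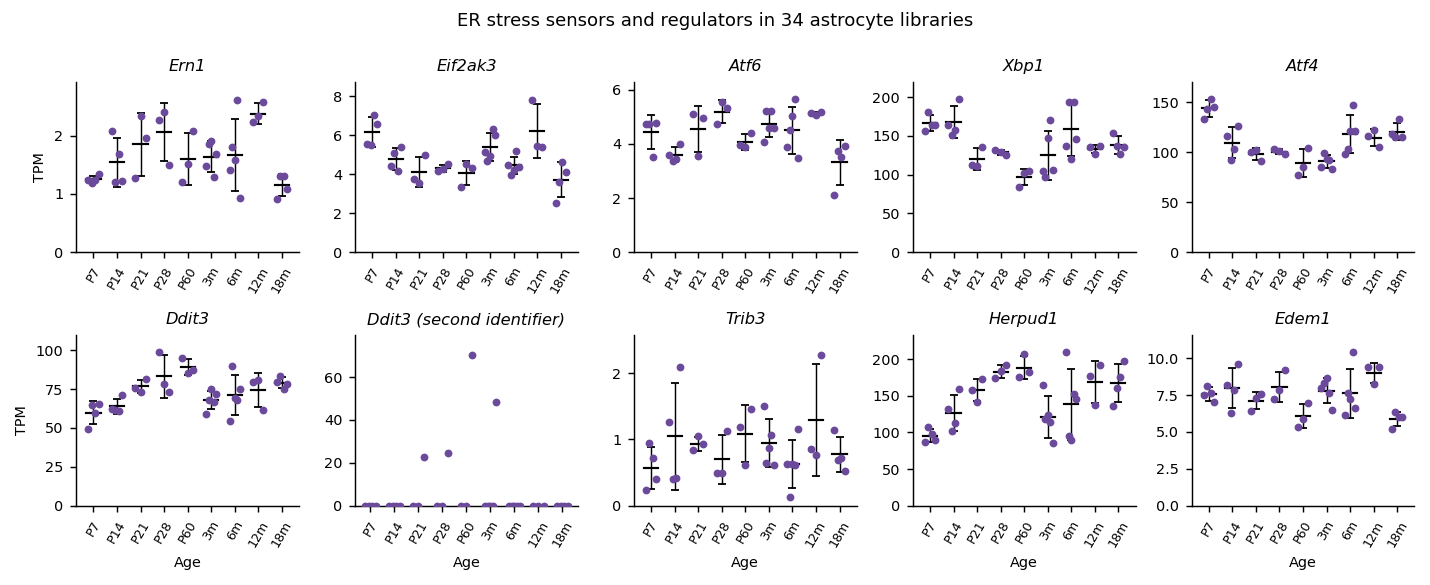
TPM (vertical) of the 9 ER stress sensors and regulators, in 10 rows, by age (horizontal), with a point per library, a bar for the mean and whiskers of 1 SD (n = 3 to 5); the second Ddit3 identifier has points only. Herpud1 and Ddit3 are lowest at P7 and highest at P60, while Xbp1 and Atf4 are lowest at P60.

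**Figure D5:**
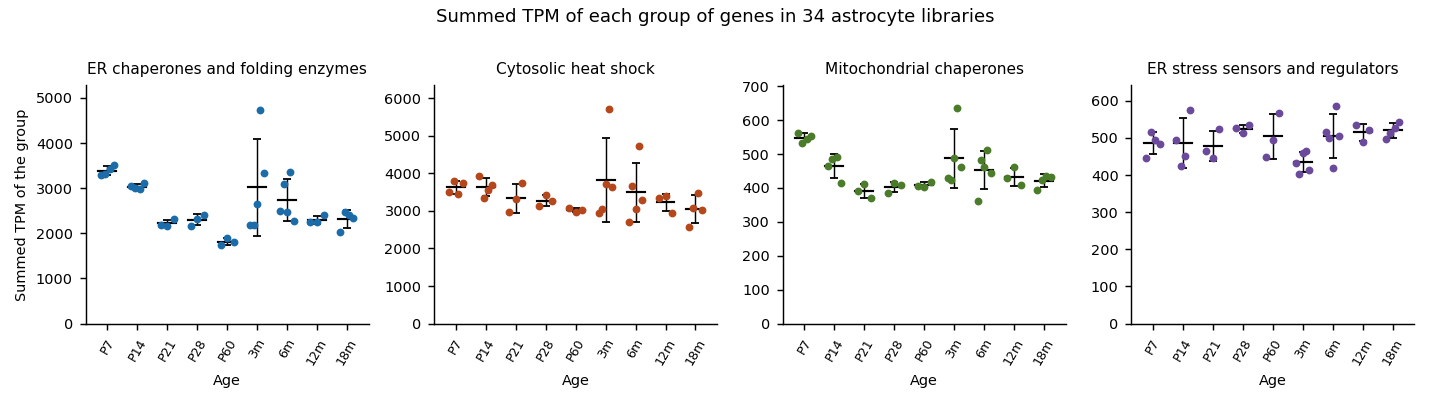
Summed TPM (vertical) of each group of genes by age (horizontal), with a point per library, a bar for the mean and whiskers of 1 SD (n = 3 to 5). The ER chaperones sum to 1740.0 to 1889 TPM at P60, against 3295 to 3515 TPM at P7, and 3m replicate 4 reaches 4739 TPM.

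Taken by summed TPM, the ER chaperones held 1740.0 to 1889 TPM at P60, against 3295 to 3515 TPM at P7, and the mitochondrial chaperones 402 to 418 TPM at P60, against 532 to 562 TPM at P7. The cytosolic genes held 2968 to 3088 TPM at P60, against 3439 to 3793 TPM at P7. The sensors and regulators overlapped between these ages, at 448 to 568 TPM at P60 and 446 to 517 TPM at P7. A sum is led by its most abundant genes, Hspa5, Calr and Pdia3 among the ER genes and Hspa8 among the cytosolic ones.

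Other genes of the same pathways were counted from lists that exclude the 41. Their counts stand against 19.5% of all genes higher and 33.3% lower in P60 vs P7, 4.16% and 33.4% in 18m vs 3m, and 4.67% and 24.9% in 18m vs P7. Of 53 further ER folding and degradation genes tested, 35 fell and 2 rose in P60 vs P7, with a median of -0.43. The cyclophilin Ppib averaged 459.8 ± 23.9 TPM at P60 (n = 3) and 817 ± 31.7 TPM at P7 (SD, n = 4, limma adjusted p = 4.96e-06), and the lumenal Erp29 averaged 100.5 ± 4.79 TPM at P60 and 190.0 ± 3.45 TPM at P7 (limma adjusted p = 1.19e-05). Those that rose were Crebrf and Dnajc1. In 18m vs P7, 20 of the 53 fell and none rose, with Spcs3 and Ssr3, parts of the signal peptidase and the translocon-associated complex, giving the smallest p. In 18m vs 3m, 16 fell and 3 rose, and Ppib was among those that rose, with 736 ± 49.1 TPM at 18m (n = 4) and 488.6 ± 75.4 TPM at 3m (SD, n = 5, limma adjusted p = 3.92e-05).

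Of 45 further cytosolic chaperones and co-chaperones, 5 rose and 25 fell in P60 vs P7, 2 rose and 14 fell in 18m vs 3m, and 20 fell in 18m vs P7. Dnaja4, a J-domain protein, averaged 36.4 ± 8.97 TPM at P60 and 16.0 ± 1.79 TPM at P7 (limma adjusted p = 0.00137), and Bag2, an inhibitor of the ubiquitin ligase CHIP, averaged 17.8 ± 3.60 TPM at P60 and 34.1 ± 3.08 TPM at P7 (SD, n = 3 and 4, adjusted p = 0.000945). Among 31 further integrated stress response genes, 2 rose and 11 fell in P60 vs P7, 6 fell in 18m vs 3m, and 1 rose and 9 fell in 18m vs P7. The amino acid transporter Slc7a5, an ATF4 target, averaged 30.9 ± 2.06 TPM at P60 and 87.5 ± 7.17 TPM at P7 (SD, n = 3 and 4, limma adjusted p = 0.000446). In 18m vs 3m the shares called among the further ER, cytosolic, stress response and mitochondrial genes were each below the 37.5% of all genes. In P60 vs P7 the shares called among the stress response and mitochondrial genes were below the 52.8% of all genes. Of 17 mitochondrial quality control genes, 1 rose and 7 fell in P60 vs P7, with Timm44 and Phb2 giving the smallest p among those that fell and Clpp the gene that rose, 1 rose and 2 fell in 18m vs 3m, and 3 fell in 18m vs P7. Genes set off by tissue dissociation, which also raises heat shock genes, were counted as well. Of 20 such immediate early genes, 4 fell in P60 vs P7, 1 fell in 18m vs 3m, and 1 rose and 2 fell in 18m vs P7, and their part in these results was not tested.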

How the data were processed

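Polyadenylated RNA of 34 libraries was amplified from low input and sequenced, per the labels' protocols. The authors deposited 1 table of TPM values per gene and library. Per the submitters' processing notes, the software was RSEM 1.2.28, STAR 2.7.1a, DESeq2 1.36.0 and Trim Galore 0.6.4, and the build was mm10, with no role stated for any. The strand setting and read depth are not given in the sources used here, so no counting error could be set on a value.

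TPM were compared as log2(TPM + 1), keeping genes that reached 1 TPM in 3 or more libraries, with limma 3.58.1 (trend and robust settings, statmod 1.5.0, R 4.3.3). The fit had 1 mean per age over all 34 libraries, with 6 contrasts and an F test over 9 ages, and p-values were adjusted by Benjamini and Hochberg over 14590 genes. A call is an adjusted p under 0.05. The share of all genes whose libraries do not overlap was counted only for P60 against P21 and P28. The procedure was tested on simulated data. Tables and plots used Python 3.11.15, pandas 2.3.3 and matplotlib 3.10.9. Full values are given for anchor genes and, in each comparison, for up to 3 called members per group and direction by smallest p, and for up to 2 genes per direction of the other pathway lists. The members and lists were chosen with earlier results of these data known.

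Alternatives were a pseudocount of 0.1, no filter or one of 5 TPM, quantile normalization, rescaling by median of ratios, the replicate number as a block, only the ages compared, covariates for other cell types or for genes at 0, each library left out in turn, and Hspa1a and Hspa1b summed. Leaving out 3m replicates 4 and 5 together and using 6m in place of 3m were chosen after seeing the data. Gene positions come from the GENCODE vM21 annotation of GRCm38. One gene whose values were all missing was left out.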

Additional observations from a re-analysis of the deposited data

Results flagged for a closer look

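Among 206 sets of 4 or 5 libraries, each a member at 1 age, 18 held a library that stood apart by Dixon's criterion, which chance meets in about 1 in 20 sets. Replicate 4 at 3m held 6 of them, all high. They were Hsp90aa1 at 1103 TPM, Hsp90ab1 at 876 TPM, Hsph1 at 79.8 TPM, Hspd1 at 140.1 TPM, Pdia4 at 312 TPM and Creld2 at 145 TPM. That library also had the lowest astrocyte sum and the highest ependymal sum of its age, whose part was not tested.

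Replicate 4 at 6m stood high in Hspa4 (30.3 TPM) and Hsp90aa1 (671 TPM), and P7 replicate 2 in Hspa1b (7.79 TPM) and Hsph1 (32.3 TPM). At P14, replicate 3 was high in Cryab (394 TPM) and low in Hsf1 (32.6 TPM), and replicate 4 was high in Ddit3 (71.1 TPM). At 18m, replicate 1 was low in Hsph1 (13.9 TPM), replicate 2 was low in Fkbp11 (8.30 TPM) and replicate 3 was high in Atf4 (133 TPM). P7 replicate 3 was low in Atf6 (3.51 TPM). The second Ddit3 identifier was at 48.3 TPM in 3m replicate 5 and at 0 in the other 3m libraries.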

How the results depend on the processing

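The number of members called in P60 vs P7 (30) moved to 16 with the cell type covariates (3705 over all genes, against 7697 without them) and otherwise stayed within 26 to 30. In 18m vs 3m the 16 calls moved to 8 after median-of-ratios rescaling, 7 with quantile normalization, 9 with the cell type covariates, 0 with the covariate for genes at 0 (limma, 3 at an unadjusted p under 0.05, while calls over all 14590 genes went to 297, against 5476 without it), 7 with only both ages fitted, 8 without 3m replicates 4 and 5 and 5 with 6m in place of 3m. Over all genes the calls were 5334 after median-of-ratios rescaling, 3930 with quantile normalization and 3236 with the cell type covariates. They were 4529 with only both ages fitted, 4245 without 3m replicates 4 and 5 and 2968 with 6m in place of 3m. Leaving out single libraries gave 6 member calls (without 18m replicate 1) to 20 (without 3m replicate 1), with 9 without 3m replicate 4. Calls over all genes without single libraries are not given here. In 18m vs P7 the 21 calls moved to 12 after median-of-ratios rescaling (2920 over all genes, against 4316 without it). Leaving out 1 library gave 14 member calls (without 18m replicate 1) to 20. In P14 vs P7 the 4 calls moved to 2 with the cell type covariates and 17 with only both ages fitted. Calls over all genes moved from 1728 to 1181 and 4914 in these settings. The 4 member calls moved to 1 without P7 replicates 1 or 4 or P14 replicates 3 or 4. They moved to 2 without P7 replicate 2 or P14 replicate 2, and stayed at 4 without P14 replicate 1. In 3m vs P60 the 16 calls moved to 10 after median-of-ratios rescaling and with the cell type covariates, 2 with the covariate for genes at 0 (496 over all genes, against 1487 without it), 6 with only both ages fitted and 3 without 3m replicates 4 and 5. Over all genes the calls were 1349 after that rescaling, 1422 with the cell type covariates and 2052 with only both ages fitted. Without 3m replicates 4 and 5 they were 763. Leaving out single libraries gave 4 member calls (without P60 replicate 1), 7 (without P60 replicates 2 or 3, or 3m replicate 4), 10 (without 3m replicate 5) and up to 14. In 6m vs 3m the 2 calls moved to 4 after median-of-ratios rescaling, 1 with the cell type covariates, and 0 in limma with only both ages fitted or without 3m replicates 4 and 5 (2 and 8 at an unadjusted p under 0.05, with 7 and 143 calls over all genes, against 1360 otherwise), and single libraries gave 1 (without 3m replicate 5) to 4 (without 6m replicate 3). Over all genes the calls in 6m vs 3m were 1908 after median-of-ratios rescaling and 792 with the cell type covariates. The F test's 31 calls moved to 15 with the cell type covariates (6728 over all genes, against 9281 without them).

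The replicate block gave 30 calls in P60 vs P7, 16 in 18m vs 3m, 23 in 18m vs P7, 5 in P14 vs P7, 12 in 3m vs P60 and 2 in 6m vs 3m, and Hspa1a in 18m vs P7 and Herpud1 in 18m vs 3m lost their call under it. Over all genes the block gave 7727, 6346, 4876, 2214, 1584 and 1629 calls in these comparisons. The labels state no link between libraries of the same number. Deviations of 119 same-numbered pairs had a mean correlation of 0.0023, with 26 pairs over 0.1. For differently numbered pairs the mean was -0.0003, and their pairs over 0.1 were not counted. Since opposite values cancel, these means cannot exclude a link between some of the libraries.

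Of 66 member fold changes given with full statistics, 16 kept their direction and call under every alternative run, 10 in P60 vs P7 and 6 in 18m vs P7, and 50 lost their call under at least 1. The sign turned in 18m vs 3m for Fkbp11 with the covariate for genes at 0 (0.13), Herpud1 with the cell type covariates (-0.11) and Edem1 with quantile normalization (0.012). The causes were not tested. Without read counts, the precision of genes with few TPM is unknown.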

Other observations

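Replicate 4 at 6m was the highest library of its age in 10 of 14 cytosolic heat shock genes, at a median of 1.40 times the age's median, and in 8 of 15 ER genes, at 1.28 times. Replicate 4 at 3m was the highest of its age in 12 of 15 ER genes, at 1.75 times the age's median, in 10 of 14 cytosolic genes and in all 3 mitochondrial chaperones, at 1.37 times. It was the highest in 2 of the 10 rows of sensors and regulators. Of these 10 rows, 4 had their highest mean at 12m and 4 their lowest at 18m. The share of all genes with these extremes was not counted. The 12m libraries lay in different ranges, with 4556, 4532 and 1615 genes at 0 in replicates 1, 2 and 3.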
